A study of Homo sapiens with 12 samples.

Results

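The genes carried on the human mitochondrial genome were examined in 12 RNA-sequencing libraries of MRC5 cells, a human embryonic lung fibroblast line, in 4 groups of 3. A gene was taken as a member when its symbol in the deposited count table begins with MT-, the prefix of genes encoded in mitochondrial DNA. The table holds 35 such genes among 57500 rows: 13 protein-coding genes and 22 tRNA genes. The 2 ribosomal RNA genes of the same genome, MT-RNR1 and MT-RNR2, were not analysed here. Prol denotes proliferating cells and Sen(IR) cells made senescent by X-ray irradiation at 20 Gy and, per the study's methods, collected 10 to 12 days later. Sen(IR)+UK5099 are irradiated cells given UK5099, an inhibitor of the mitochondrial pyruvate carrier, and Sen(IR)+CTPI2 are irradiated cells given CTPI2, an inhibitor of the mitochondrial citrate carrier SLC25A1. The methods name 100 µM for UK5099 and 15 or 30 µM for CTPI2, without saying which CTPI2 dose these libraries received. All groups are 1 cell line. The study calls its RNA-sequencing replicates independent, and the labels do not say at which step they were separated, so p-values measure the spread between libraries of this line.

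The mitochondrial genome is a small circle transcribed in both directions from promoters in its control region. Each strand gives a long RNA in which tRNAs lie between the mRNAs, and enzymes that cut at the tRNA ends release the individual RNAs. Most genes are read from the promoter that yields the plus-strand RNA, which runs from MT-TF past MT-ND1 and MT-CO1 to MT-CYB. The opposite promoter yields the minus-strand RNA, which begins at MT-TP, passes MT-TE and MT-ND6, and ends beyond the tRNA cluster of MT-TY, MT-TC, MT-TN and MT-TA. All 13 proteins are subunits of the respiratory chain or ATP synthase: 7 belong to complex I, 1 to complex III, 3 to complex IV and 2 to complex V. Of the genes counted here, 12 mRNA and 14 tRNA genes lie on the plus strand, and MT-ND6 and 8 tRNA genes on the minus strand.

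The tRNA genes on which the results turn are shown with their anticodons in capitals, as read from the GRCh38 mitochondrial chromosome of 16569 bases, 5′ to 3′ on the strand of the gene. MT-TF (phenylalanine, plus strand, chrM:577-647) is the first gene of the plus-strand RNA. MT-TP (proline, minus strand, chrM:15956-16023) and MT-TE (glutamate, minus strand, chrM:14674-14742) are the first tRNAs of the minus-strand RNA. MT-TY (tyrosine, minus strand, chrM:5826-5891), MT-TC (cysteine, minus strand, chrM:5761-5826) and MT-TN (asparagine, minus strand, chrM:5657-5729) lie far along the same RNA.
MT-TF: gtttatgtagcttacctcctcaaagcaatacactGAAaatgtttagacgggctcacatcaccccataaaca
MT-TP: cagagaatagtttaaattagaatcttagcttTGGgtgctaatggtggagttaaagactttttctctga
MT-TE: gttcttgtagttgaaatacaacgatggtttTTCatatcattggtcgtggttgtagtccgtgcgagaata
MT-TY: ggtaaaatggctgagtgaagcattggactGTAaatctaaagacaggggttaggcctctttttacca
MT-TC: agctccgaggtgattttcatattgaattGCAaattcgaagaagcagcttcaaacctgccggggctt
MT-TN: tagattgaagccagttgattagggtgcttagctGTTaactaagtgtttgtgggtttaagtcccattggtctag

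Neighbouring mRNA genes share bases, and reads there cannot be split with certainty. MT-ATP8 and MT-ATP6 share 46 bases (chrM:8527-8572), MT-ND4L and MT-ND4 share 7 (chrM:10760-10766), and MT-ATP6 and MT-CO3 share 1 (chrM:9207-9207). Among tRNA genes, MT-TI and MT-TQ, which lie on opposite strands, share 3 bases, and MT-TC and MT-TY share 1. In the first sequence the capitals mark the start codon of MT-ATP6, and in the second, printed with 15 bases on either side, the shared bases.
MT-ATP8 and MT-ATP6: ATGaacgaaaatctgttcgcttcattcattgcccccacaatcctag
MT-ND4L and MT-ND4: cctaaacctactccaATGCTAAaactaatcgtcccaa

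Total counts ranged from 20597736 to 28245693 per library. The labels fitted the cells: the cell-cycle inhibitor CDKN1A rose 1.74 ± 0.05 on the log2 scale (SE) in Sen(IR) over Prol, and LMNB1 and MKI67, which mark dividing cells, changed by -4.35 and -4.42. The summed level of 10 fibroblast markers lay between 16440 and 27974 CPM (read counts scaled for library size) in every library, and those of the epithelial, leukocyte and endothelial lists reached at most 5.97. The counts did not separate strands: among small genes inside introns of expressed genes, 45.8% of 1091 on the strand opposite to the host had a count, against 49.0% of 698 on the same strand. A row named MT-ND6 can therefore hold RNA of the plus strand, and rows such as MT-ND5 can hold RNA of the minus strand. Strand below means the strand on which a gene is annotated. A further 399 nuclear copies of mitochondrial genes stood in the table, 342 of them without any count. The most abundant, MTATP6P1, MTND2P28 and MTCO1P12 on chromosome 1, are 98.5%, 98.4% and 98.6% identical to MT-ATP6, MT-ND2 and MT-CO1. Because reads with a unique position only were counted, the levels of these mitochondrial genes are uncertain by an amount that was not measured. The copies lie close together, between bases 629640 and 634376. The sequence between them was not compared with the mitochondrial genes that lie between MT-ND2 and MT-ATP6, whose levels may be affected too.

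The mitochondrial genes took a larger share of the library in senescent cells than in proliferating cells, and a larger share again with UK5099. The 35 genes held 2.68%, 2.61% and 2.36% of the counts in the Prol libraries and 3.13%, 3.21% and 2.78% in Sen(IR). With UK5099 they held 3.81%, 4.23% and 4.14%, and with CTPI2 3.28%, 3.07% and 2.39%. The UK5099 libraries lay above all others, the Sen(IR) libraries lay above the Prol libraries, and replicate 3 of CTPI2 lay apart from the other two, within the range of Prol. The means were 2.55% ± 0.17 (SD, n = 3) in Prol, 3.04% ± 0.23 in Sen(IR), 4.06% ± 0.22 with UK5099 and 2.92% ± 0.46 with CTPI2. An exact permutation test over the 15400 ways to assign the libraries to 4 groups of 3 gave p = 0.00416, also 0.00416 after Benjamini-Hochberg adjustment over 6 measures. Between 2 groups of 3 the smallest two-sided exact permutation p is 0.1, which Sen(IR) against Prol and UK5099 against Sen(IR) both gave. CTPI2 against Sen(IR) gave an exact permutation p of 0.8, and its difference of -0.12 percentage points became 0.14 without replicate 3 of CTPI2. A share of counts does not give RNA per cell: in bulk samples fewer cells of a type and less RNA per cell cannot be told apart.

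Almost all of this share was mRNA. The tRNA genes together held 0.00896% ± 0.00052 of the counts in Prol (SD, n = 3), 0.0155% ± 0.00070 in Sen(IR), 0.0348% ± 0.0015 with UK5099 and 0.0147% ± 0.0012 with CTPI2. That amounted to between 2221 and 9409 reads per library. Per mRNA count, tRNA counts were 1.45-fold higher in Sen(IR) than in Prol and 1.69-fold higher with UK5099 than in Sen(IR). The second of these differences rested on MT-TP, which went from 0.084% of mitochondrial counts in Sen(IR) to 0.44% with UK5099. Over the 21 other tRNA genes, a setting chosen after seeing the data, the ratio was 0.99-fold with UK5099 against Sen(IR) (log2 difference -0.016, exact permutation p = 1) and the groups overlapped, while it was 1.39-fold higher in Sen(IR) than in Prol without overlap. Without MT-TP the tRNA share of counts was 0.0129% ± 0.00051 in Sen(IR) and 0.0170% ± 0.00092 with UK5099 (SD, n = 3), still without overlap. With all 22 tRNA genes, the log2 ratio of tRNA to mRNA counts was -8.15 ± 0.04 in Prol, -7.61 ± 0.05 in Sen(IR), -6.85 ± 0.09 with UK5099 and -7.61 ± 0.14 with CTPI2 (SD, n = 3). The exact permutation test over the 4 groups gave p = 0.000649 for this ratio (adjusted 0.000974; 0.0179 unadjusted without MT-TP) and p = 0.000260 for the tRNA share (adjusted 0.000779). The paper describes column extraction of RNA for RT-qPCR, and its RNA-sequencing section names no extraction. Whether a count on a tRNA gene came from a mature tRNA or from a longer uncut RNA was not tested.

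**Figure D1:**
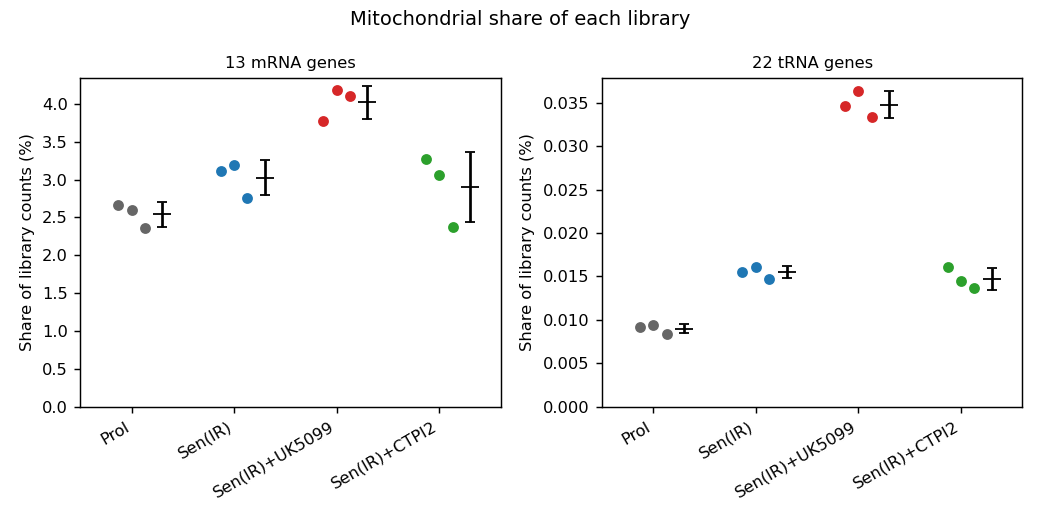
Share of each library's counts (%) in the 13 mitochondrial mRNA genes (left) and the 22 tRNA genes (right), 1 point per library, with the mean and SD of each group of 3 beside them. The UK5099 libraries lie above the others in both panels, and the tRNA panel is on a scale about a hundredth of the mRNA panel.

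Levels per kilobase of gene differed several-fold among mRNAs that arise from 1 long RNA. All genes were measured in the same libraries, and the SDs here include shifts shared between genes. Overlap of SDs therefore does not show that the order of genes changed from library to library. In Sen(IR), MT-CO1, the catalytic subunit of complex IV, was the most abundant at 6180 ± 532 CPM per kb (SD, n = 3). A middle group followed within overlapping spreads: MT-ATP6 at 3659 ± 303, MT-ND4 at 3599 ± 277, MT-CO3 at 3430 ± 267, MT-ATP8 at 3302 ± 240 and MT-CO2 at 2993 ± 180. The MT-ATP8 value was 4245 when divided by its unshared bases alone, which would place it second. MT-ND4L stood at 2642 ± 200, overlapping MT-CO2 within 1 SD. Below it and apart from it came MT-CYB of complex III at 1644 ± 111 and MT-ND6 at 1580 ± 132, which overlapped each other. The lowest were the complex I mRNAs MT-ND3 at 1215 ± 61.9, MT-ND5 at 1180 ± 108, MT-ND1 at 1166 ± 87.9 and MT-ND2 at 1007 ± 82.4, whose neighbours in this order overlapped within 1 SD. As counted, levels thus did not follow the distance from the promoter, since MT-ND1 and MT-ND2, the first mRNAs of the plus-strand RNA, were among the lowest. MT-ND2, MT-CO1 and MT-ATP6 have near-identical nuclear copies that can take away unique reads, so their places in this order are uncertain. Other nuclear copies were not compared with the mitochondrial genes, so the places of other mRNAs may be affected too.

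Among tRNA genes the level per kb in Sen(IR) was highest for MT-TN at 689 ± 80.2 CPM per kb, followed by MT-TP at 380 ± 38.7, MT-TC at 316 ± 43.9 and MT-TL1, a leucine tRNA, at 288 ± 27.3. As counted, all of them lay below the lowest mRNA. MT-TF came next at 163 ± 23.0. The tRNA genes are shorter than the reads as sequenced, so a read on them can reach into neighbouring sequence. How far this alters their levels per kb, among tRNA genes or against mRNAs, was not tested. The 4 tRNA genes MT-TM, MT-TD, MT-TR and MT-TT had between 0 and 14 reads per library and were left out of the fit by the filter on low counts, so 31 of the 35 genes were tested: 13 mRNA and 18 tRNA genes.

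**Figure D2:**
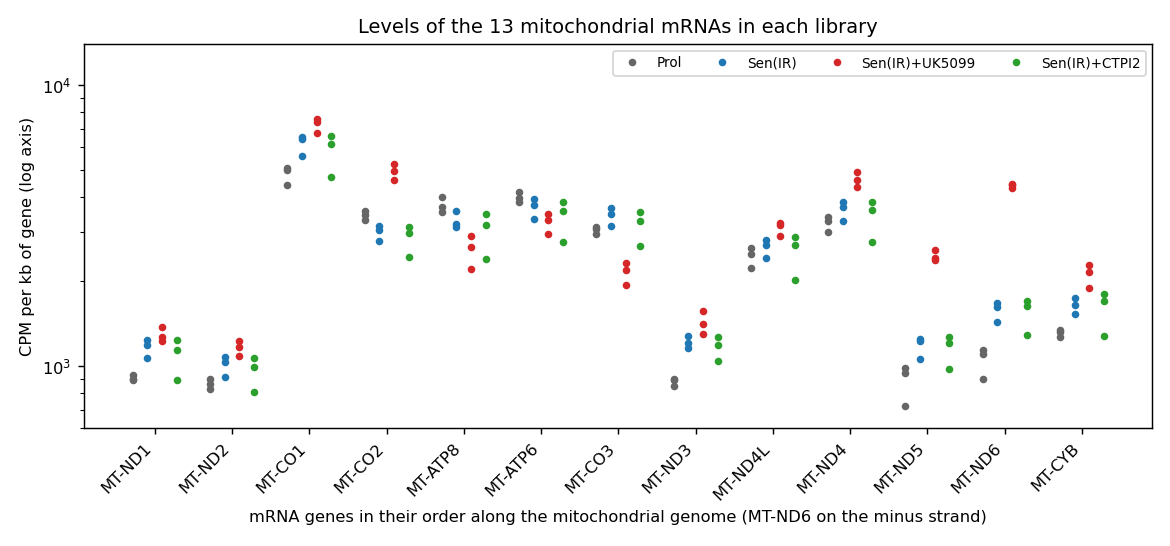
CPM per kb of gene (log axis) of the 13 mRNAs in genome order, 1 point per library, coloured by group. MT-CO1 is highest in every group, and with UK5099 MT-ND6 moves from 1580 to 4386 CPM per kb on average, while MT-CO3 moves from 3430 to 2154.

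Sen(IR) was compared with Prol to show how the mitochondrial transcripts differ in irradiated, senescent cells. Of the 31 tested genes, 11 were called, that is, they had an adjusted p under 0.05 in edgeR's quasi-likelihood test and a log2 fold change over 0.5 in size. Of these 8 rose and 3 fell. Over all 16251 genes tested 47.2% were called, 24.8% higher and 22.4% lower, so a smaller share of the mitochondrial genes than of all genes was called. By adjusted p alone 18 passed, 14 higher and 4 lower, against 68.7% of all genes, 34.1% higher and 34.5% lower. The called genes were nearly all tRNA genes, and MT-ND6 was the 1 mRNA among them.

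MT-TF changed most. Its level was 1.24, 2.19 and 1.19 CPM in the Prol libraries and 10.5, 13.5 and 10.7 CPM in Sen(IR). The groups did not overlap, as was so for 11516 of all 16251 genes tested. MT-TF rose 7.57-fold, by 2.92 ± 0.21 on the log2 scale (SE, adjusted p = 2.34e-11). MT-TV, the valine tRNA that lies between the ribosomal RNA genes, rose by 1.21 ± 0.16, from 2.42 to 5.63 CPM on average (adjusted p = 5.82e-07). MT-TL1, the next tRNA of the plus strand, was 22.4 ± 0.97 CPM in Prol and 21.6 ± 2.0 in Sen(IR) (SD, n = 3) and did not pass the test (adjusted p = 0.667). Further along, the neighbouring plus-strand tRNAs MT-TH (histidine), MT-TS2 (serine) and MT-TL2 (leucine) fell, with log2 fold changes of -0.97, -1.09 and -0.55. They were the 3 lower calls, and MT-TS2, at 0.13 to 1.30 CPM in these libraries, was lost when Sen(IR) replicate 1 was left out (-0.63, adjusted p = 0.214) or Prol replicate 1 or 3. MT-TL2 was lost without Sen(IR) replicate 3 (-0.43, adjusted p = 0.0491) and with upper-quartile scaling (-0.43), both under the fold limit.

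On the minus strand, 6 of 9 tested genes rose and none fell under the call rule, against 24.8% and 22.4% of all genes. The median log2 fold change of the 9 was 0.60, beside 0.03 for the 22 plus-strand genes and 0.01 for all genes tested. MT-TC rose 2.53-fold (1.34 ± 0.11, adjusted p = 4.92e-10), from 7.21, 9.10 and 8.36 CPM to 17.5, 22.4 and 22.7 CPM. MT-TP rose 2.14-fold and MT-TN 2.01-fold. MT-TE rose by 0.87 ± 0.18 and MT-TY by 0.60 ± 0.19, a call that was lost for MT-TY without Sen(IR) replicate 3 (0.35, adjusted p = 0.117) or Prol replicate 3. The 3 other minus-strand tRNAs, MT-TQ, MT-TA and MT-TS1, were each under 1.1 CPM and did not pass. MT-ND6 was 581, 598 and 473 CPM in Prol and 883, 854 and 751 CPM in Sen(IR), a rise of 0.59 ± 0.09 (adjusted p = 2.88e-06) that came to 0.49, under the limit of 0.5, without Prol replicate 3.

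The mRNAs of the plus strand moved little. None of the 12 was called, against 47.2% of all genes, and their median log2 fold change was 0.20. By adjusted p alone 6 were higher and 1 lower, against 34.1% and 34.5% of all genes. All 7 complex I mRNAs had positive values, from 0.11 for MT-ND4L to 0.59 for MT-ND6, as did 8253 of all 16251 genes tested. Of the 7, 5 passed by adjusted p, near the 68.7% of all genes that did. Among them was MT-ND3 (0.46 ± 0.07, adjusted p = 3.27e-06). MT-CO1 and MT-CYB were 0.36 and 0.33 higher. MT-CO2, a further subunit of complex IV, was the 1 mRNA that passed in the other direction, at -0.20 ± 0.07 (adjusted p = 0.0168). The complex V mRNAs MT-ATP8 and MT-ATP6 had values of -0.18 and -0.12 and did not pass.

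UK5099 was compared with Sen(IR) to show how the mitochondrial transcripts differ in irradiated cells given this inhibitor. This comparison and that of Sen(IR) with Prol share the 3 Sen(IR) libraries, so a high or low value there moves both in opposite directions. With UK5099 12 of the 31 genes were called, 9 higher and 3 lower. Over all genes 20.8% were called, 8.76% higher and 12.1% lower, so a larger share of the mitochondrial genes than of all genes was called. By adjusted p alone 21 passed, 17 higher and 4 lower, against 45.4% of all genes, 21.9% higher and 23.5% lower.

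The first 3 genes of the minus-strand RNA, MT-TP, MT-TE and MT-ND6, all rose, and MT-TP rose most of the 31. It was 27.7, 27.0 and 22.9 CPM in Sen(IR) and 167, 178 and 164 CPM with UK5099. It rose 6.55-fold (2.71 ± 0.076, adjusted p = 6.74e-18), and no library of the other groups came above 27.7 CPM. MT-TE rose 2.13-fold (1.09 ± 0.16, adjusted p = 6.10e-06), from 4.67, 5.74 and 5.20 CPM to 10.4, 13.3 and 9.46 CPM. MT-ND6 reached 2251, 2338 and 2319 CPM, a 2.78-fold rise (1.47 ± 0.09, adjusted p = 5.61e-12).

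Farther along the minus-strand RNA the values diverged. MT-TY fell, from 4.31, 4.50 and 7.01 CPM in Sen(IR) to 2.19, 2.63 and 1.90 CPM (-1.23 ± 0.20, adjusted p = 3.30e-05). MT-TC, its immediate neighbour, was 0.46 ± 0.10 higher, past the adjusted p but under the fold limit. MT-TN averaged 50.3 ± 5.9 CPM in Sen(IR) against 52.7 ± 0.39 under UK5099 (SD, n = 3) and did not pass (adjusted p = 0.526). MT-TA and MT-TQ, at 0.25 to 1.60 CPM in these libraries, rose by 1.18 ± 0.45 and 1.00 ± 0.33. The MT-TA call was lost without Sen(IR) replicate 2 or 3 or without any 1 of the UK5099 libraries (adjusted p 0.0560 to 0.152), and the MT-TQ call without Sen(IR) replicate 1 or 3 or UK5099 replicate 2 (0.0515 to 0.0764). Of the 9 minus-strand genes 5 were called higher and 1 lower, against 8.76% and 12.1% of all genes. The median log2 fold change of the 9 was 1.00, beside 0.36 for the plus-strand genes.

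MT-ND6 is the mRNA of the minus strand, and its ratio to the plus-strand mRNAs does not depend on how libraries are scaled. The log2 ratio was -5.55, -5.47 and -5.68 in Prol and -5.11, -5.21 and -5.18 in Sen(IR). It was -3.90, -4.02 and -3.98 with UK5099, above every other library, and -5.20, -5.06 and -5.09 with CTPI2, overlapping the Sen(IR) values. The ratio was 2.3-fold higher with UK5099 than in Sen(IR) and 1.32-fold higher in Sen(IR) than in Prol. The exact permutation test over the 4 groups gave p = 0.000195 (adjusted 0.000779). MT-ND6 made up 2.06% of all mitochondrial counts in Prol, 2.70% in Sen(IR), 5.96% with UK5099 and 2.79% with CTPI2.

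**Figure D3:**
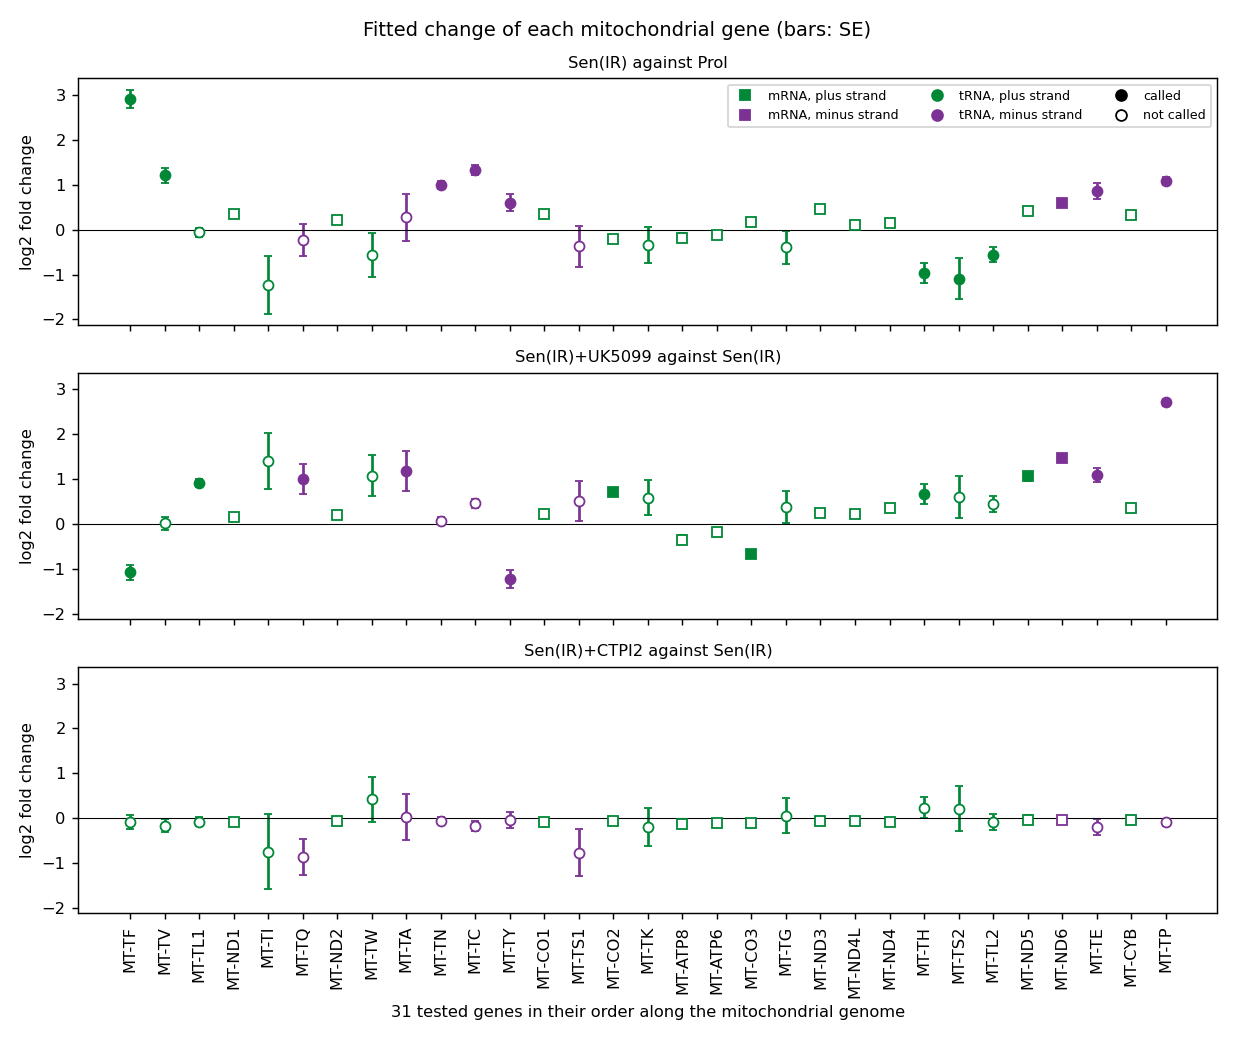
Log2 fold change of the 31 tested genes in genome order in 3 comparisons, with SE bars (hidden behind the marker where small), squares for mRNAs, circles for tRNAs, green for the plus strand, purple for the minus strand, and filled markers for called genes. MT-TF stands at 2.92 in Sen(IR) against Prol and at -1.08 with UK5099, MT-TP reaches 2.71 with UK5099, and no gene is called with CTPI2.

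On the plus strand, UK5099 moved the mRNAs in both directions. MT-ND5, a complex I subunit whose gene adjoins MT-ND6, was 2269, 2233 and 1912 CPM in Sen(IR) and 4374, 4308 and 4703 CPM with UK5099, a 2.09-fold rise (1.06 ± 0.10, adjusted p = 6.92e-09). MT-CO2 rose 1.65-fold (0.72 ± 0.07, adjusted p = 2.33e-08), from 2083, 2148 and 1910 CPM to 3153, 3571 and 3387 CPM. MT-CO3, the third complex IV subunit of this genome, fell from 2735, 2872 and 2461 CPM to 1524, 1823 and 1720 CPM (-0.67 ± 0.08, adjusted p = 4.37e-07). The groups did not overlap for any of these 3, as was so for 9192 of all 16251 genes tested. The mRNAs of complex IV, encoded together, thus included 1 that rose, 1 that fell and MT-CO1, which was 0.23 ± 0.09 higher and passed by adjusted p alone (0.0401).

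The 3 mRNAs with negative values were neighbours on the genome: MT-ATP8 (-0.35 ± 0.10, adjusted p = 0.00635), MT-ATP6 (-0.17 ± 0.09, adjusted p = 0.109) and MT-CO3. As a share of mitochondrial counts MT-CO3 went from 8.74% ± 0.08 to 4.36% ± 0.15, MT-ATP6 from 8.10% ± 0.08 to 5.71% ± 0.16 and MT-ATP8 from 2.22% ± 0.12 to 1.38% ± 0.11 (SD, n = 3). MT-ND5 went from 6.94% ± 0.20 to 11.6% ± 0.80. All 7 complex I mRNAs had positive log2 fold changes, and 6 passed by adjusted p. Over all genes 8288 of 16251 had positive values, and 45.4% passed by adjusted p in either direction. The median over the 12 plus-strand mRNAs was 0.23, beside 0.01 over all genes tested.

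Plus-strand mRNAs far from the promoter were compared with those near it as a ratio within each library, MT-ND5 and MT-CYB over MT-ND1 and MT-ND2. The log2 ratio was 0.80 ± 0.11 in Prol, 0.89 ± 0.02 in Sen(IR), 1.49 ± 0.07 with UK5099 and 0.94 ± 0.06 with CTPI2 (SD, n = 3), with an exact permutation p of 0.000584 over the 4 groups (adjusted 0.000974). It was 1.52-fold higher with UK5099 than in Sen(IR). The 2 distal mRNAs did not move alike, since MT-CYB was 0.36 ± 0.09 higher against 1.06 for MT-ND5, and the MT-ND5 row can hold minus-strand RNA. Without MT-ND5 and MT-ND6, a setting chosen after seeing the data, the mitochondrial share was still 0.60 percentage points higher with UK5099 than in Sen(IR), against 1.02 with them.

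MT-TF fell with UK5099, from 10.5, 13.5 and 10.7 CPM to 5.22, 6.45 and 4.73 CPM (-1.08 ± 0.17, adjusted p = 1.76e-05), and remained above the Prol libraries. MT-TL1, which had not passed between Sen(IR) and Prol, rose 1.88-fold, from 23.6, 19.5 and 21.6 CPM to 40.9, 43.3 and 37.3 CPM (adjusted p = 7.21e-08). MT-TV was 5.63 ± 0.20 CPM in Sen(IR) and, with UK5099, 5.68 ± 0.32 (SD, n = 3). MT-TH rose by 0.66 ± 0.22, a call lost without Sen(IR) replicate 3 (0.57, adjusted p = 0.0795) or UK5099 replicate 2 (0.54, adjusted p = 0.0903). Of the 18 tested tRNA genes 6 were called higher and 2 lower, against 8.76% and 12.1% of all genes. Positive values were seen in 16 of the 18, and in 8288 of all 16251 genes tested.

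**Figure D4:**
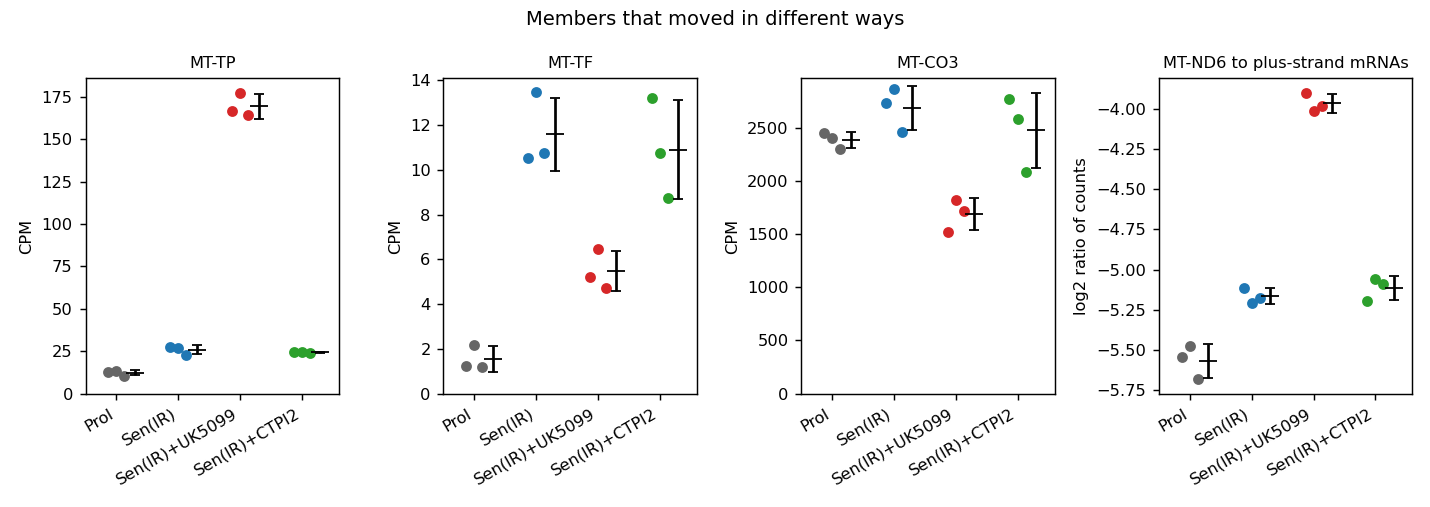
CPM of MT-TP, MT-TF and MT-CO3 and the log2 ratio of MT-ND6 to plus-strand mRNA counts, 1 point per library, with the mean and SD of each group of 3. With UK5099 MT-TP and the MT-ND6 ratio lie above all other libraries, MT-CO3 lies below them, and MT-TF lies between Prol and Sen(IR).

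Other measures moved with UK5099 as well. The nuclear-retained RNA NEAT1 was 798 CPM in Sen(IR) and 1698 in UK5099 libraries on average (1.09 ± 0.12 on the log2 scale), and MALAT1, which also stays in the nucleus, was 226 and 345 CPM. The summed fibroblast markers, scaled by library totals alone, were 25925 to 26899 CPM in Sen(IR) and 16440 to 17593 CPM with UK5099. The small cytoplasmic and nuclear RNAs RN7SL1 and RN7SK stood at 0 in all libraries. The part of RNA composition in the mitochondrial differences was not tested.

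CTPI2 was compared with the same Sen(IR) libraries, and no mitochondrial gene passed. None of the 31 was called or had an adjusted p under 0.05 in edgeR, DESeq2 likewise gave 0, and 1 gene had an unadjusted p under 0.05. That was MT-TQ, at 0.62, 0.81 and 0.54 CPM in Sen(IR) and 0.39, 0.29 and 0.39 CPM with CTPI2 (-0.87 ± 0.40, adjusted p = 0.659). Over all genes 0.166% were called, 0.486% passed by adjusted p and 7.27% had an unadjusted p under 0.05. All 13 mRNAs had values below 0, from -0.13 ± 0.10 for MT-ATP8 to -0.03 ± 0.09 for MT-ND6, so that changes of the size seen with UK5099 in MT-ND6 (1.47) or MT-TP (2.71) lay many SE away. Replicate 3 of CTPI2 held the lowest value of its group for all 13. Without it the median of the plus-strand mRNAs was 0.03, against -0.08 with it. MT-TP was 24.6, 24.3 and 24.0 CPM, and MT-TF 13.2, 10.8 and 8.75 CPM.

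Set directly against each other, the 2 inhibitors differed in 15 of the 31 genes, 12 higher and 3 lower with UK5099, where 19.9% of all genes were called, 8.2% higher and 11.7% lower. Their doses were not matched, and they act on different carriers. MT-TP was 6.98-fold higher with UK5099 than with CTPI2 (2.80 ± 0.076, adjusted p = 5.58e-18), MT-ND6 2.84-fold (1.51 ± 0.09, adjusted p = 4.64e-12) and MT-ND5 2.14-fold (1.10 ± 0.10, adjusted p = 4.61e-09). MT-TF, MT-TY and MT-CO3 were the 3 lower genes, at -0.99, -1.19 and -0.55. Of the 9 minus-strand genes 7 were higher and 1 lower. The MT-CO3 call was lost without UK5099 replicate 1 (-0.49) or CTPI2 replicate 1 (-0.47), where the value came under the fold limit. Among low tRNA genes that were higher with UK5099, MT-TI (11, 17 and 8 reads against 5, 0 and 2) was lost without replicate 2 of either group, and MT-TL2 without UK5099 replicate 1 or CTPI2 replicate 3. MT-TA was lost without any 1 UK5099 library or CTPI2 replicate 2 or 3, and MT-TS1 without replicate 1 or 3 of either group, with adjusted p up to 0.145. The MT-TS1 call was also lost with DESeq2 (adjusted p = 0.0672), without a filter on low counts (0.102) and with the 2 compared groups alone (0.0553).

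Nuclear genes that copy, transcribe and process the mitochondrial genome were examined as a list of 46, all of which passed the filter. In Sen(IR) against Prol 3 rose and 17 fell, where 24.8% of all genes tested were called higher and 22.4% lower. The median log2 fold change of the list was -0.32, beside 0.01 for all genes. The mRNA of TFAM, which packages mitochondrial DNA and starts its transcription, was 60.3, 54.2 and 59.8 CPM in Prol and 34.2, 35.7 and 35.4 CPM in Sen(IR) (-0.73 ± 0.066, adjusted p = 1.41e-09). PNPT1, the mitochondrial polynucleotide phosphorylase that degrades RNA with the helicase SUPV3L1, fell most (-1.22 ± 0.078, adjusted p = 4.10e-12). The poly(A) polymerase MTPAP and the RNA-binding protein SLIRP, which partners LRPPRC, had log2 fold changes of -0.51 and -0.54 and were called lower. The higher genes were RRM2B (1.77) and TK2 (1.44), which supply nucleotides for mitochondrial DNA, and the coactivator PPARGC1A (0.70), which was near 1 CPM and was named after its value was seen. POLRMT, the mitochondrial RNA polymerase, was 0.19 ± 0.10 (adjusted p = 0.103). The enzymes that cut out tRNAs were ELAC2 at -0.32, TRMT10C at -0.06 and PRORP at 0.05, none of them called.

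With UK5099, 1 of the 46 rose and 2 fell, where 8.76% of all genes were called higher and 12.1% lower. They were TOP1MT, the mitochondrial topoisomerase (0.57 ± 0.12), PPARGC1A (-1.30 ± 0.30) and TWNK, the helicase that replicates mitochondrial DNA (-0.55 ± 0.11). POLRMT was -0.18 ± 0.10, TFAM -0.01 ± 0.067 and LRPPRC -0.08 ± 0.047, and none of these 3 passed by adjusted p. PNPT1, TFB2M, MTPAP, SUPV3L1 and TRMT10C lay between -0.38 and -0.25 and passed by adjusted p alone. With CTPI2 none of the 46 was called or passed by adjusted p in edgeR, and 2 had an unadjusted p under 0.05. Over all genes 0.166% were called, 0.486% passed by adjusted p and 7.27% had an unadjusted p under 0.05. A list of this size would thus be expected to hold few or no calls.

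For Sen(IR) against Prol and UK5099 against Sen(IR), the nuclear-encoded subunits of complexes I, III, IV and V, which assemble with the mitochondrial proteins, had median log2 fold changes below 0. Of 85 listed, 79 were tested. In Sen(IR) against Prol 1 rose and 7 fell (median -0.15), against 24.8% and 22.4% of all genes. With UK5099 none rose and 1 fell (median -0.13), against 8.76% and 12.1% of all genes. By adjusted p alone 28 of the 79 were lower and 1 higher with UK5099, against 23.5% and 21.9% of all genes. The plus-strand mitochondrial mRNAs had medians of 0.20 and 0.23 in the same comparisons. The difference between these lists was not tested.

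**Figure D5:**
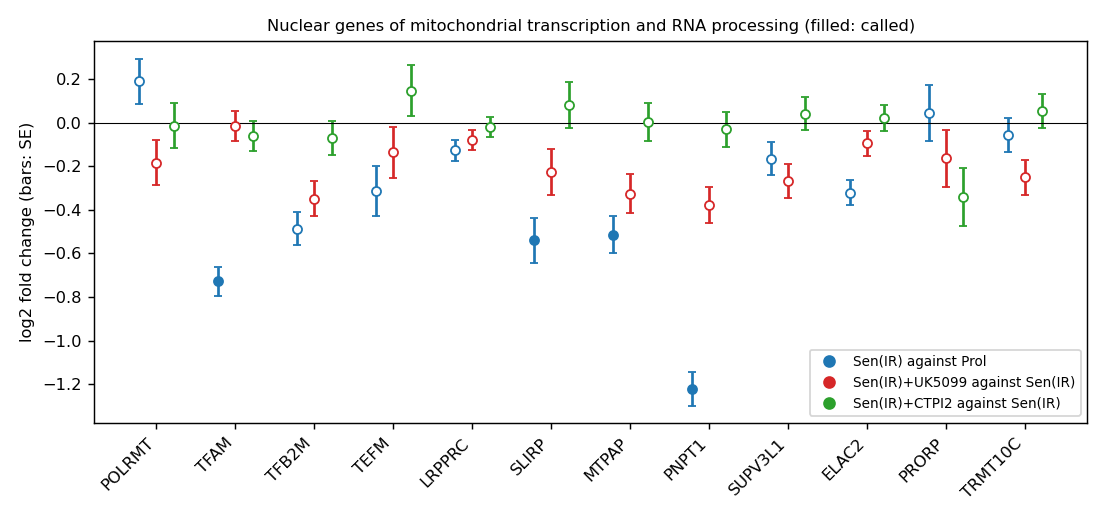
Log2 fold change with SE of 12 nuclear genes of mitochondrial transcription and RNA processing in 3 comparisons, with filled markers for called genes. TFAM (-0.73), SLIRP (-0.54), MTPAP (-0.51) and PNPT1 (-1.22) are called in Sen(IR) against Prol, and none of the 12 is called with either inhibitor.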

How the data were processed

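RNA of 12 MRC5 libraries was sequenced as paired reads of 150 bases. The paper names RNeasy columns in its RT-qPCR methods, and its RNA-sequencing section names no extraction. Per the study's methods and the submitters' processing notes, the authors used Trimmomatic 0.36 for trimming, STAR 2.5.2b for alignment against GRCh38 and featureCounts (Subread 1.5.2) to count uniquely placed reads in exons. The deposited values are raw counts per gene, with no normalization, and the strand setting is not given in the sources used here. The table's 485 rows without a gene name carried their identifiers and were kept in the fit.

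All 57500 genes entered 1 fit of the 12 libraries with edgeR 4.0.16 (R 4.3.3): filterByExpr on the 4 groups, TMM scaling, glmQLFit and glmQLFTest with no replicate term, and Benjamini-Hochberg adjustment over the 16251 genes tested, which hold 99.9% of counts. A gene was called at adjusted p under 0.05 and absolute log2 fold change over 0.5. CPM are TMM-scaled, except for the summed cell type markers, which are scaled by library totals alone. SE is the log2 fold change over the root of F, and lengths are from GENCODE 44. Shares and ratios were computed from counts and tested by two-sided exact permutation. The fit was tested on simulated data: for UK5099 against Sen(IR), edgeR recovered 200 of 200 changed genes among 15845, with 8 false calls. The changed genes all had higher counts, and their changes were all well over the fold limit. Recovery was therefore not tested for genes with few reads or for values near that limit.

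All mitochondrial genes could be named. Of the machinery list 12 genes and, in each comparison, the 3 called with the largest change were named, plus PPARGC1A in Sen(IR) against Prol, and other lists were given by counts. Genes and lists were chosen with earlier results of these data known. Alternatives were DESeq2 1.42.0, other scalings, other filters, the 2 compared groups alone, a replicate block and leaving out each library.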

Additional observations from a re-analysis of the deposited data

How the results depend on the processing

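Under 20 alternatives to the edgeR fit, MT-TP, MT-TE, MT-ND6, MT-ND5, MT-CO2, MT-CO3, MT-TF, MT-TY and MT-TL1 stayed called with UK5099 against Sen(IR) in every one, and MT-TF, MT-TV, MT-TN, MT-TC, MT-TH, MT-TE and MT-TP in Sen(IR) against Prol. With a fold limit of 1 on the log2 scale, 6 genes in place of 11 were called in Sen(IR) against Prol and 9 in place of 15 in UK5099 against CTPI2. Upper-quartile scaling moved the median of all genes in Sen(IR) against Prol from 0.01 to 0.13, and the median of plus-strand mRNAs from 0.20 to 0.32. Per kilobase of unshared bases MT-ATP8 in Sen(IR) stood at 4245 CPM. Several values of CTPI2 against Sen(IR) changed sign when single libraries were left out. The share of counts ranged from -0.31 to 0.14 percentage points, the log2 ratio of tRNA to mRNA counts from -0.086 to 0.050, MT-ND5 from -0.11 to 0.072, MT-ND6 from -0.11 to 0.080 and MT-TF from -0.25 to 0.050. The values of MT-TP and MT-TQ and the log2 ratios of MT-ND6 to plus-strand mRNAs and of distal to proximal mRNAs kept their sign. MT-TN with UK5099 against Sen(IR) ranged from -0.026 (without Sen(IR) replicate 3) to 0.12. MT-ATP6 with UK5099 against CTPI2 came to 0.0021 with library totals alone and ranged from -0.19 to 0.039 when single libraries were left out. Without MT-TP, a setting added after seeing the data, the log2 ratio of tRNA to mRNA counts with UK5099 came to -0.016 against Sen(IR) in place of 0.76, and to -0.011 against CTPI2 in place of 0.76. That setting leaves out the gene that rose most in the same data, so a smaller difference was built in. The cause was not tested. Leaving out 1 library gave 8 to 11 calls in Sen(IR) against Prol, 10 to 14 in UK5099 against Sen(IR) and 0 in CTPI2 against Sen(IR). The alternatives for the ratio of ribosomal RNA to mRNA were not run, since those genes were not analysed here.

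The labels number the replicates 1 to 3 in each group. Over all genes tested, the deviations of 18 same-numbered pairs correlated at -0.094 to 0.061, against -0.098 to 0.19 for 36 other pairs. Over the mitochondrial genes, same-numbered pairs of Sen(IR) and CTPI2 correlated at 0.52, 0.46 and 0.21. Those of Sen(IR) and UK5099 correlated at -0.21, 0.056 and -0.16. Differently numbered pairs reached 0.41 (UK5099 replicate 2 with CTPI2 replicate 1) and -0.52 (Prol replicate 3 with CTPI2 replicate 1) over the same genes. Whether the numbers pair the samples thus stayed undecided. A fit with the replicate number as a block called 11, 12, 0 and 15 genes in the 4 comparisons, and 20, 21, 0 and 22 by adjusted p.

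With 3 libraries a group, tRNA genes under about 1 CPM rest on few reads. Leaving out single libraries removed calls of such genes and also of MT-TY, MT-TL2, MT-TH, MT-ND6 and MT-CO3.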
